A study of Mus musculus with 25 samples.

Results

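Transcripts of 10 genes that mark the epicardium, the mesothelium and simple epithelia were measured in cultures of neonatal mouse cardiac myocytes. They were the transcription factor genes Wt1, Tbx18 and Tcf21, the surface protein genes Upk3b, Upk1b and Msln, and the keratin genes Krt8, Krt18, Krt19 and Krt14. A gene was represented by the probe set annotated to it alone with the highest mean over the 25 arrays. Each of the 10 genes had 1 such probe set, among 19938 genes named in this way and 35557 probe sets in all. The myocytes came from wild type (WT) mice or from transgenic (TG) mice that overexpressed CHF1/Hey2, a Hairy-related transcriptional repressor, in the myocardium under the mlc2v promoter, which belongs to a ventricular myosin light chain gene. Cultures were kept in serum free medium (5 WT, 6 TG) or were given 20% fetal bovine serum for 24 hours (7 WT, 7 TG), with 1 Affymetrix Mouse Gene 1.0 ST array for each culture. The strain and the exact age of the mice, and the litters behind the cultures, are not given in the sources used here. Each p below therefore measures the spread between these cultures.

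The epicardium is the mesothelial sheet that covers the heart. It carries Wt1, Tbx18 and Tcf21, and cells that leave it by an epithelial to mesenchymal transition give rise to fibroblasts and mural cells of the heart. Mesothelium keeps epithelial features, among them keratin filaments, mesothelin (Msln) and uroplakins. Keratins form filaments as pairs of a type II and a type I chain. Krt8 is a type II chain and Krt18 and Krt19 are type I chains of simple epithelia. Krt14 is a type I chain of the basal layer of stratified epithelia. Heart cells that are dissociated and plated can hold such cells beside the myocytes. The paper checked each preparation by immunostaining for sarcomeric myosin and reports that the large majority of cells were myocytes. On whole cultures, fewer cells of a type and less RNA per cell cannot be told apart.

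Reference promoters are shown for Krt18 and Tcf21, which gave the most negative correlation in both sets, and for Krt8, the keratin partner of Krt18, which lies near it on chromosome 15. Each RefSeq window (GRCm38.p6) holds 250 bases before and 50 bases after the annotated start, 5′ to 3′ on the strand of the gene. The coordinates are chr15:102004293-102004592 (minus strand) for Krt8, chr15:102027966-102028265 (plus strand) for Krt18 and chr10:22820094-22820393 (minus strand) for Tcf21. Capitals mark matches to any of the 7 motifs listed after the sequences, and only the window of Krt8 among these held any.
Krt8: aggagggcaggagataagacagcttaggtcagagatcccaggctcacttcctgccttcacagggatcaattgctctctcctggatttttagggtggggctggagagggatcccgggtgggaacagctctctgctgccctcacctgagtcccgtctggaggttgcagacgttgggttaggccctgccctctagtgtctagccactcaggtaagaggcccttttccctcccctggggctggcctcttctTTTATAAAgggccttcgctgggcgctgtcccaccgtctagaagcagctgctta
Krt18: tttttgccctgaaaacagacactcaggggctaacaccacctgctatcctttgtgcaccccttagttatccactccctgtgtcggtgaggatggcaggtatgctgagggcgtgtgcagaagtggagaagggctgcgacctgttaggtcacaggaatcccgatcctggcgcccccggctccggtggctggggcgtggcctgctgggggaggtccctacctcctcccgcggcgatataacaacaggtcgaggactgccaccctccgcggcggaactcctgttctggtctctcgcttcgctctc
Tcf21: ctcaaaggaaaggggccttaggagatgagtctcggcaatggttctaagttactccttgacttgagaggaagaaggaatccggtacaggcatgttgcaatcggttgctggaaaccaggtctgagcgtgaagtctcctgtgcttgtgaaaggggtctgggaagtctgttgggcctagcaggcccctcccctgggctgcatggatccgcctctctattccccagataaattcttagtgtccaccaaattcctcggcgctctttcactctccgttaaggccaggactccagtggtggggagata

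The table gave windows for 6 of the 10 genes (Upk3b, Tbx18, Tcf21, Krt14, Krt8 and Krt18). The motifs were searched on both strands. TATAAA was found in Krt8 alone, in matches on each strand that overlap, and 13.6% of all 32851 windows of this length hold it. GGAATG was found in Upk3b and Krt14, against 14.7% of all windows. The letters CACGTG (7.15% of all windows), CACGCG (9.27%), GGGCGG (35.7%), AGGTGTGA (1.28%) and GCGGGGGCG (2.91%) were in none of the 6 windows. The GC content was 58.0% in Krt8, 61.3% in Krt18 and 53.3% in Tcf21, and the median over all windows was 52.7%.

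The libraries carried the label of a myocyte culture and of their genotype. The mean log2 value of 10 cardiac myocyte genes, such as Myh6 and Tnnt2, was 10.4 to 12.2 on the 25 arrays. Hey2, the transgene, was at 6.12 to 6.37 in WT and 7.08 to 8.55 in TG myocytes without serum, and at 6.59 to 7.36 in WT and 7.94 to 9.36 in TG myocytes with serum. The WT and TG values did not overlap in either set. The arrays with and without serum stood on different scales. The array median was 4.99 to 5.09 without and 5.21 to 5.36 with serum, and the lowest value on an array was 2.45 to 2.66 without and 0.99 to 1.21 with serum. Comparisons and correlations were therefore made within each set, and values are log2 RMA values. Values of different genes come from different probes and were not ranked against each other.

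Among the surface protein genes, Upk1b, a tetraspanin of the uroplakin family, varied most from culture to culture. Without serum its 5 WT values were 7.24, 7.61, 7.94, 8.07 and 8.46. The 6 TG values ran from 5.90 through a median of 6.87 to 8.21, with 2 cultures at 8.16 and 8.21 and the other four at 6.90 or below. With serum the 7 WT values ran from 9.62 (median 10.69) to 11.13. The 7 TG values ran from 8.44 (median 9.35) to 10.70, with 3 cultures at 10.40 to 10.70 and the other four at 9.35 or below. The residual SD of Upk1b, after removal of the genotype means, was 0.73 without and 0.71 with serum, and it exceeded that of 99.7% and 99.9% of genes, respectively. The median over all genes was 0.11 and 0.16.

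Msln, the precursor of the mesothelial surface protein mesothelin, was at 6.41, 6.86, 6.97, 7.53 and 7.58 in the 5 WT cultures without serum. The 6 TG values lay in the narrow range of 6.43 to 6.78 (median 6.71), inside the range of WT. With serum Msln was at 7.61 to 8.73 (median 8.27) in WT and at 7.49 to 8.25 (median 7.77) in TG myocytes. Upk3b, a uroplakin that is widely used as a mesothelial marker, was at 5.07 to 5.78 on all 25 arrays. This lay near the array medians, at percentiles 47.4 to 59.9 of the probe sets of an array. Its residual SD of 0.16 without serum and 0.15 with serum exceeded that of 74.8% and 48.4% of genes.

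Among the simple epithelial keratins, Krt18 was at 9.67 to 10.76 in WT and 9.92 to 10.61 in TG myocytes without serum, and at 10.50 to 11.40 and 10.85 to 11.48 with serum. Krt19 was at 9.39, 9.62, 10.16, 10.48 and 10.72 in the 5 WT cultures without serum. In the 6 TG cultures Krt19 ran from 9.35 (median 9.54) to 10.85, and the 2 cultures with the highest Upk1b, replicates 4 and 5, also had the highest Krt19 (10.51 and 10.85). With serum, 6 WT values of Krt19 lay between 10.98 and 11.17 and WT serum replicate 1 at 10.32. The 7 TG values of Krt19 with serum ran from 10.43 (median 10.59) to 11.15. Krt8 was at 7.53 to 9.16 in WT and 7.75 to 8.86 in TG myocytes without serum, and at 8.53 to 9.64 and 8.70 to 9.41 with serum. The residual SD of Krt8, Krt18 and Krt19 exceeded that of 91.7% to 99.3% of genes in both sets. Krt14 was at 5.15 to 5.88 on all arrays. This too lay near the array medians, at percentiles 48.7 to 57.6 of the probe sets of an array.

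The 3 transcription factor genes behaved differently from each other. Wt1, a zinc finger factor of the epicardium, was nearly flat without serum, at 6.05 to 6.28 on 11 arrays, with the value 6.19 repeated on 4 of them. Its residual SD there exceeded that of 7.02% of genes. Such repeated values were found for 54.4% of genes without serum and 1.77% with serum, so they are a property of that set of arrays. Tbx18, a T-box factor, was at 8.51 to 9.08 without serum and 8.94 to 9.50 with serum. Tcf21, a basic helix-loop-helix factor of epicardial cells and cardiac fibroblasts, was more variable. Its 5 WT values without serum were 6.45, 6.69, 7.13, 7.71 and 8.02, and its residual SD of 0.49 exceeded that of 98.3% of genes. With serum Tcf21 was at 6.29 to 7.44 (median 7.01) in WT and 6.66 to 7.50 (median 7.02) in TG myocytes.

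**Figure D1:**
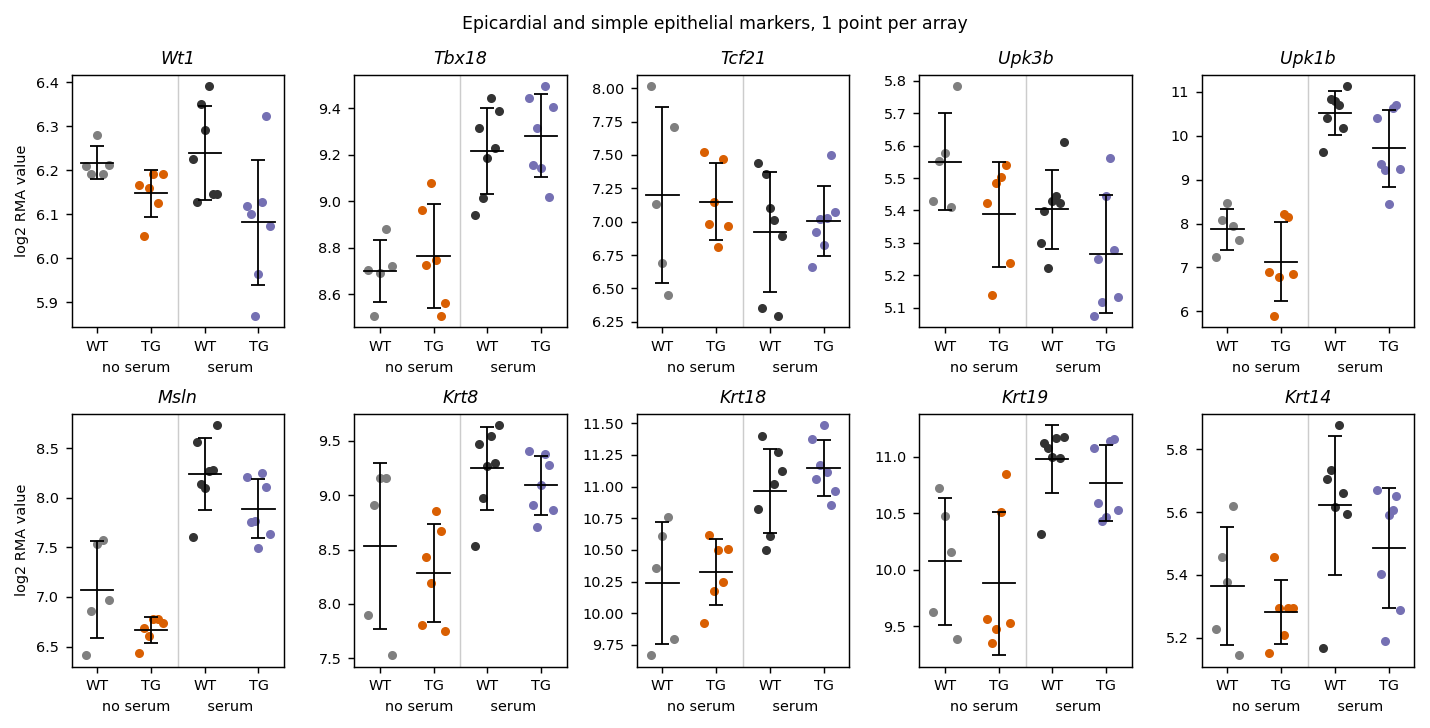
Log2 RMA values (vertical axis, scaled for each gene) of the 10 genes in WT and TG myocytes without and with serum. Each point is 1 array, and bars show the mean and SD of 5 WT and 6 TG arrays without serum and 7 of each with serum. Upk1b spans the widest range within a group, and WT and TG points overlap for every gene, or meet in the case of Wt1 without serum.

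The position of a probe set among all probe sets of its own array does not depend on a common rescaling of that array, so it was used to describe the genes across the sets. The median percentile of Upk1b was 83.6 in WT and 72.0 in TG myocytes without serum, against 96.4 and 90.6 with serum. A shift of this size or more, 12.8 percentile points in WT and 18.6 in TG myocytes, was found for 5.54% and 1.35% of genes. The median percentile of Msln was 73.2 and 70.5 without serum and 82.6 and 77.2 with serum, a shift shared by 12.1% and 21.6% of genes. Krt18, Krt19 and Tbx18 shifted by at most 1.84 points. Upk3b, Wt1 and Tcf21 stood lower with serum in both genotypes, with shifts of -3.35 points (Wt1 in WT) to -6.02 points (Tcf21 in WT). The effect of serum cannot be told apart from the separate scales of the sets, and none of these shifts was tested.

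The 10 genes were correlated with each other over the cultures of each set, after the mean of each genotype had been subtracted. The 45 pairs were tested by permutation within genotypes, two-sided, with adjustment over the 45 pairs. All 25 arrays were not pooled, since the sets lay apart. A pair of relations passed in both sets. Upk1b rose and fell with Krt19, and Tcf21 was high where Krt18 was low. In all, 2 pairs passed without serum, 1 positive and 1 negative, and 9 pairs passed with serum, 8 positive and 1 negative. Pearson r exceeded 0.6 in 7 of the 45 pairs (15.6%) without serum and in 10 (22.2%) with serum, against 6.61% and 5.11% of all pairs of genes. The median r over the 45 pairs was 0.058 and 0.32, against 0.012 and 0 over all pairs of genes. In both sets Upk1b, Msln, Krt8, Krt18, Krt19 and Tcf21 had a residual SD above that of 91.7% to 99.9% of genes. The pairs of all genes were not matched to these in spread or level. All points of a correlation share an array and a culture, so these relations describe cultures and not single cells.

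Upk1b and Krt19 had r = 0.87 (permutation p = 0.00151, adjusted p = 0.034) and rho = 0.86 (adjusted p = 0.0479) over the 11 cultures without serum. Without the 2 cultures farthest from the median of Upk1b, r was 0.90, and within the 6 TG cultures it was 0.93. The 5 WT cultures were too few for an r of their own. Over the 14 cultures with serum r was 0.89 (permutation p = 0.00025, adjusted p = 0.0054) and rho 0.95 (adjusted p = 0.00945), with r = 0.95 within TG and 0.84 within WT (n = 7 each, no test). Without the 2 farthest cultures r was 0.91. The TG cultures alone fell into a high and a low cluster of Upk1b in both sets, and the r within TG rests on these clusters. Without serum Hey2 was at 7.08 in both cultures of the high cluster and at 7.82 to 8.55 in the low cluster. With serum it was at 7.94 to 8.42 in the high and 8.84 to 9.36 in the low cluster. Centring on genotype does not remove this gradient of Hey2, and its part in the relation was not tested. The call with serum remained when any 1 of the 14 cultures was left out (adjusted p of 0.0054 to 0.0348), while without serum it remained in 4 of 11 such runs (0.038 to 0.102), with r never below 0.82.

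Krt18 and Tcf21 had r = -0.96 (permutation p = 2.60e-04, adjusted p = 0.0117) and rho = -0.95 (adjusted p = 0.0479) over the 11 cultures without serum. The WT cultures with Tcf21 at 7.71 and 8.02 had the lowest Krt18 (9.80 and 9.67), and the WT culture with the lowest Tcf21 (6.45) had the highest Krt18 (10.76). Without the 2 cultures farthest from the median of Krt18 r was -0.87, and within TG it was -0.84. With serum r was -0.85 (permutation p = 0.00064, adjusted p = 0.0054) and rho -0.84 (adjusted p = 0.00945) over 14 cultures, with r = -0.84 within TG and -0.86 within WT (n = 7 each, no test). Without the 2 farthest cultures r was -0.87. Leaving out any 1 culture with serum kept the call (adjusted p of 0.00576 to 0.0348). Without serum the call was lost without TG no serum replicate 1 or WT no serum replicate 4 (adjusted p up to 0.085), with r between -0.97 and -0.94 over the 11 runs.

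With serum the other 7 positive calls lay among Upk1b, Msln, Krt8, Krt19 and Krt14. These 5 genes were grouped from the calls themselves, so a high share of calls within the group was built in. Of the 10 pairs among these 5 genes, 8 passed, and r was 0.56 to 0.89 in all 10. Msln followed Krt19 (r = 0.88, permutation p = 0.00041, adjusted p = 0.0054) and Krt8 (r = 0.85, adjusted p = 0.0054), and Krt8 followed its filament partner Krt19 (r = 0.86, adjusted p = 0.0054). Krt8 and Krt18, the other keratin partners, had r = 0.42 with serum (permutation p = 0.188, adjusted p = 0.352). Without serum r was 0.78 (permutation p = 0.0269, adjusted p = 0.173), and the pair did not pass in either set. Much of the number of calls with serum rested on WT serum replicate 1. This culture had the lowest WT values of Upk1b, Msln, Krt8, Krt19 and Krt14. Without it, 3 of the 45 pairs passed (Upk1b with Krt19, Msln with Krt19, and Krt18 with Tcf21). Without serum 9 of the same 10 pairs had a positive r, and Upk1b with Krt19 was the one that passed. The other extreme was Tcf21, with a negative r in 8 of its 9 pairs without serum and in 7 with serum.

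**Figure D2:**
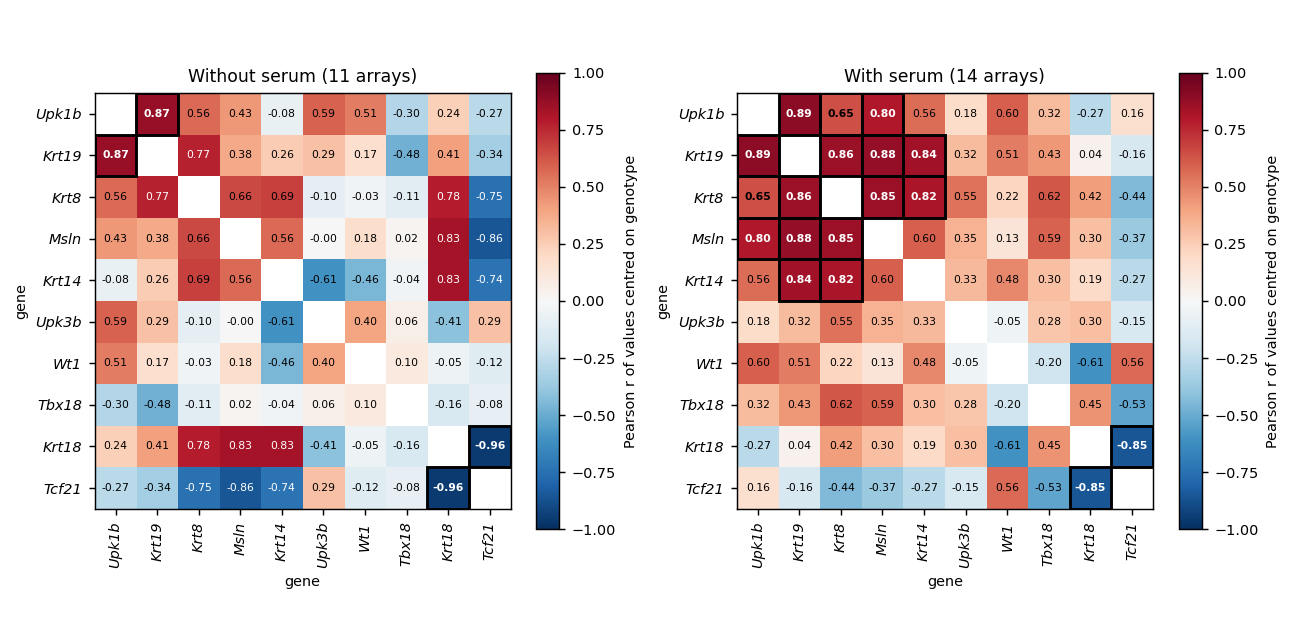
Pearson r (colour and number) of log2 values centred on the genotype mean, for the 45 pairs of the 10 genes, over 11 arrays without serum and 14 with serum. Framed squares passed an adjusted permutation p under 0.05. Upk1b with Krt19 and Krt18 with Tcf21 are framed in both panels.

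**Figure D3:**
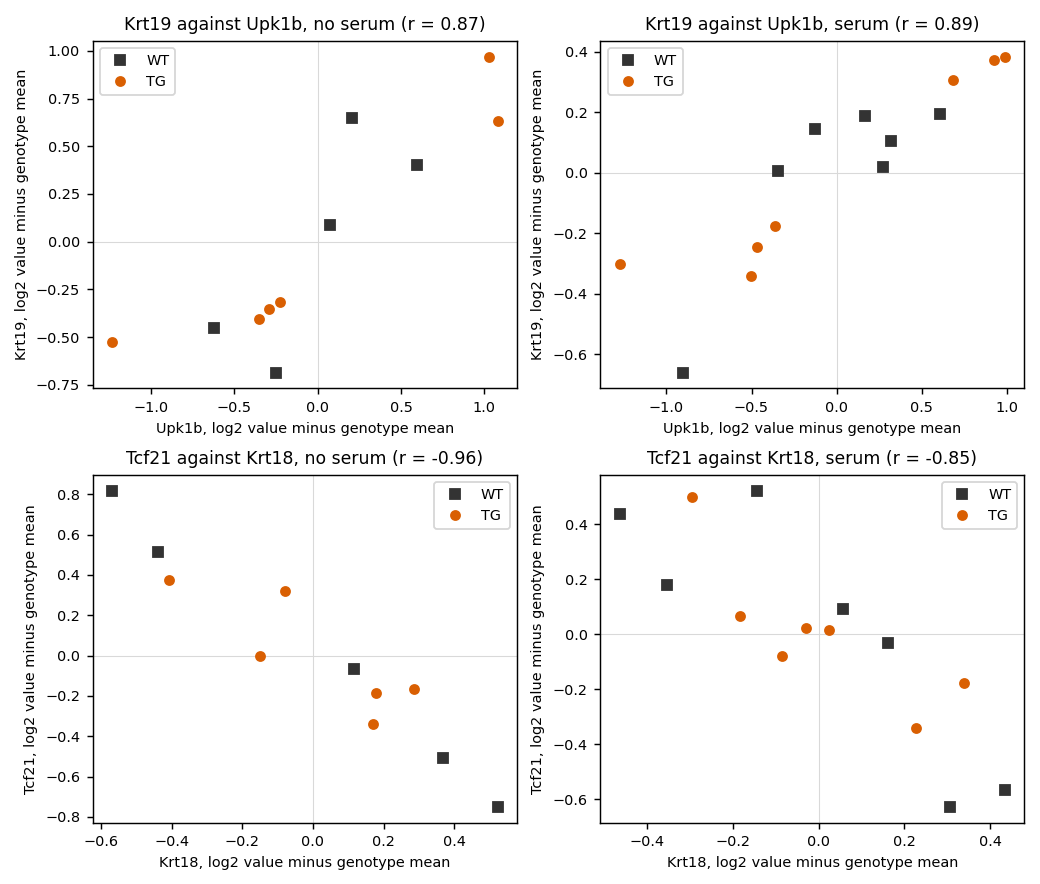
Log2 value minus the genotype mean of Krt19 against Upk1b and of Tcf21 against Krt18. Each point is 1 array (squares WT, circles TG). The first pair rises together (r = 0.87 and 0.89) and the second falls (r = -0.96 and -0.85).

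Transcripts of cardiac myocytes differed between cultures with high and low Upk1b in part of each set. Without serum, replicates 4 and 5 of the TG cultures and replicate 2 of the WT cultures had a mean log2 value of 10.9, 10.4 and 10.4 over the 10 cardiac myocyte genes, against 11.3 to 11.8 in the other 8 cultures. These 3 cultures had Upk1b at 8.07 to 8.21 and Krt19 at 10.51 to 10.85. The highest Upk1b value, 8.46 in WT no serum replicate 3, came with a mean of 11.35. The relations were recomputed without these 3 low cultures, a choice made after the data had been seen. Upk1b and Krt19 then had r = 0.75 (n = 8, permutation p = 0.0289, adjusted p = 0.222) and Krt18 and Tcf21 had r = -0.97 (n = 8, permutation p = 0.0037, adjusted p = 0.0829), and no pair passed. The 8 cultures left allow too few permutations for a pair on its own to pass, so the lost calls decide nothing. With serum, the 3 TG cultures with Upk1b at 10.40 to 10.70 had myocyte means of 11.02, 11.61 and 11.79, against 12.09 to 12.23 in the other four. WT serum replicates 3 and 4 had means of 10.89 and 10.95 and Upk1b at 10.85 and 10.80, while the highest Upk1b value, 11.13, came with 11.55. Without TG serum replicate 6 and WT serum replicates 3 and 4, which had the 3 lowest means with serum, 12 pairs passed, and this choice too was made after the data had been seen. Upk1b and Krt19 then had r = 0.88 (n = 11, permutation p = 0.00048, adjusted p = 0.0128) and Krt18 and Tcf21 had r = -0.83 (n = 11, permutation p = 0.00141, adjusted p = 0.0159). The part of myocyte content in these relations was not tested further.

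Lower values of the surface protein genes in TG than in WT myocytes did not pass the test across all probe sets in either set. Without serum 0 of the 10 genes passed an adjusted p under 0.05 in limma (0% of all 35557 probe sets did) and 0 had an unadjusted p under 0.05 (5.64% of all). Of the 10 genes 8 were lower in TG myocytes, against 54.7% of all probe sets, and the median log2 difference, TG minus WT, was -0.12 over the 10 genes and -0.01 over all genes. The values of TG and WT cultures overlapped or met in each of the 10 genes, where 0.402% of all probe sets had no overlap. Upk1b had a log2 difference of -0.73 (SE 0.40, 95% confidence interval -1.61 to 0.15, adjusted p = 0.882). Msln had -0.40 (SE 0.19, interval -0.81 to 0.01, adjusted p = 0.878), and all 6 TG values lay below the WT mean. Upk3b had -0.16 (SE 0.089, adjusted p = 0.883) and was also below the WT mean in all 6 TG cultures.

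Krt8 and Krt19 had log2 differences of -0.25 (SE 0.33) and -0.20 (SE 0.33) without serum, and Krt18 had 0.09 (SE 0.21). Krt14 had -0.08, Tbx18 0.06 and Tcf21 -0.05. Wt1 differed by only -0.07 (SE 0.036, adjusted p = 0.878 in limma), with all 6 TG values at or below the lowest WT value. The exact two-sided permutation test of Wt1 alone gave an unadjusted p = 0.026, and Wt1 was the 1 gene of the 10 with such a p under 0.05. This test was run for the 10 genes and Hey2 only, so no share over all genes stands beside that count. The value 6.19 of Wt1 was repeated on 4 of the 11 arrays. The adjusted p of the 10 genes ran from 0.878 to 0.982.

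With serum 0 of the 10 genes passed the adjusted test (0.00844% of all probe sets did) and 2 had an unadjusted p under 0.05, Upk1b and Wt1 (10.7% of all did). Of the 10 genes 7 were lower in TG myocytes, against 56.5% of all probe sets, and the median log2 difference was -0.15 over the 10 genes and -0.02 over all genes. The TG and WT values overlapped in each gene, where 0.256% of all probe sets had no overlap. Upk1b had a mean of 10.52 ± 0.50 (SD) in the 7 WT cultures and 9.71 ± 0.87 in the 7 TG cultures. The log2 difference was therefore -0.81 (SE 0.35, interval -1.55 to -0.075, adjusted p = 0.430 in limma). In linear terms WT myocytes had 1.76 times the TG signal. The 4 TG cultures of the low cluster lay below all WT values, and 3 WT values lay above all TG values. Wt1 had a mean of 6.24 ± 0.11 (SD) in the 7 WT cultures and 6.08 ± 0.14 in the 7 TG cultures, with a log2 difference of -0.16 (SE 0.071, adjusted p = 0.448 in limma), with 5 of 7 TG values below all WT values. The exact permutation p was 0.0542 for Upk1b and 0.0367 for Wt1.

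Msln had a log2 difference of -0.35 with serum (SE 0.16, interval -0.70 to 0.00142, adjusted p = 0.469), and 6 of 7 TG values lay below the WT mean. Upk3b, Krt8, Krt19 and Krt14 had -0.14, -0.16, -0.21 and -0.14. Krt18 had 0.18 (SE 0.14), Tbx18 0.07 and Tcf21 0.08. None of these 3 passed, and the interval of Tcf21, -0.31 to 0.47, left room for a difference in either direction. Whether the TG effect was unequal without and with serum was tested in a fit over all 25 arrays, and this passed for 0 of the 10 genes, adjusted (0.00281% of all probe sets) or unadjusted (4.26%). For Upk1b this difference was -0.08 (95% interval -1.21 to 1.05), an interval wider than either effect. The sets stand on different scales, so equal TG effects need not give a difference of 0 in this fit.

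**Figure D4:**
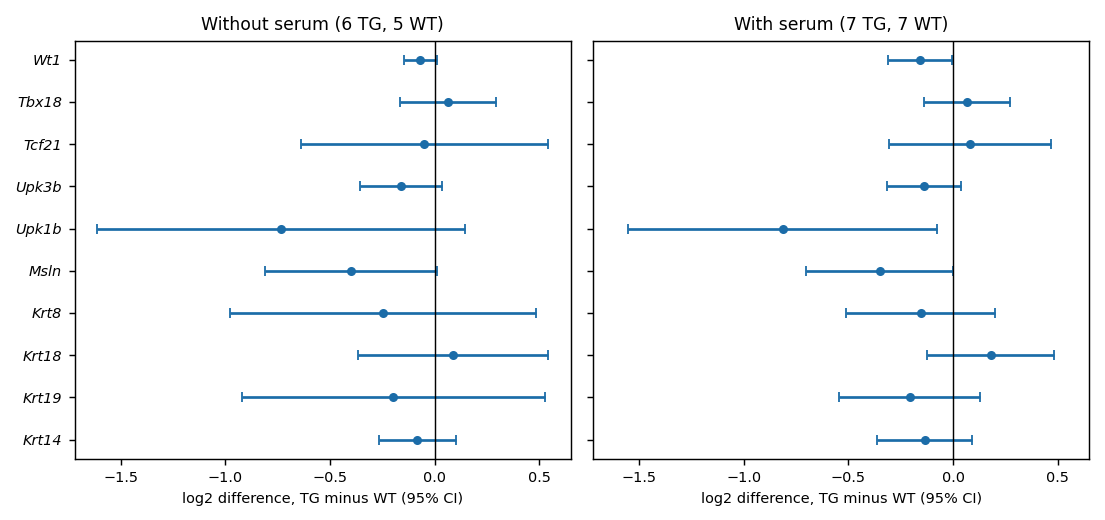
Log2 difference between TG and WT myocytes (horizontal axis, TG minus WT) of the 10 genes with its 95% confidence interval from limma, without serum (6 TG, 5 WT arrays) and with serum (7 of each). Upk1b lies farthest from 0 with the widest interval in both panels, at -0.73 and -0.81.

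Of 17 further markers of mesothelium and epicardium, 13 were lower in TG myocytes without serum and 12 with serum, against 54.7% and 56.5% of all probe sets, with a median log2 difference of -0.06 and -0.09. Without serum 7 of the 17 in WT and 8 in TG myocytes had a mean under 5, below or near the array medians. With serum it was 5 in each genotype. None of the 17 passed the adjusted test. An unadjusted p under 0.05 was found for 4 of them without serum (5.64% of all probe sets) and 5 with serum (10.7% of all), all lower in TG. Lrrn4, a leucine-rich repeat membrane protein gene, was at 5.11 in TG and 5.83 in WT myocytes with serum (log2 difference -0.72, SE 0.15, adjusted p = 0.172 in limma). Pdpn, which encodes podoplanin, had -0.26 (adjusted p = 0.862) without and -0.34 (adjusted p = 0.292) with serum, and the membrane glycoprotein gene Gpm6a had -0.45 (adjusted p = 0.853) without serum. The mean z-score of the 17 genes had r = -0.01 without and 0.27 with serum with that of Upk3b, Upk1b, Msln, Krt8, Krt18, Krt19 and Wt1. Without the 2 farthest cultures r was -0.14 and 0.47.

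Other epithelial genes were set against the same 7 genes. The mean z-score of 11 of them, among them Epcam, Cdh1 and Krt7, had r = 0.71 (rho 0.65, n = 11) without serum and 0.75 (rho 0.68, n = 14) with serum. Without the 2 farthest cultures r was 0.68 and 0.49. A mean under 5, below or near the array medians, was found for 7 of the 11 without serum in each genotype. With serum it was found for 4 in WT and 5 in TG myocytes. Of the 11, 10 were lower in TG myocytes in each set (median log2 difference -0.06 and -0.16), against 54.7% and 56.5% of all probe sets. None passed. An unadjusted p under 0.05 was found for 0 without serum (5.64% of all probe sets) and 4 with serum (10.7% of all). The smallest p with serum were those of the claudin gene Cldn3 (-0.22, adjusted p = 0.345 in limma) and the adhesion gene Epcam (-0.31, adjusted p = 0.368), and without serum those of the transcription factor genes Grhl2 (-0.07) and Elf3 (-0.11). Of 8 stratified epithelial genes, 5 were lower without and 7 with serum (median -0.01 and -0.14). An unadjusted p under 0.05 was found for 0 and 2 of the 8, beside the same shares of all probe sets. Krt6a (0.07) and Sfn (-0.10) came first without serum, and Krt17 (-0.19) and Krt15 (-0.24) with serum. Without serum 5 of the 8 had a mean under 5 in each genotype, and with serum 4 in WT and 5 in TG. All 3 other uroplakin genes, Upk1a, Upk2 and Upk3a, were lower in both sets by at most 0.13 (median -0.06 and -0.09). None of these genes passed the adjusted test.

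Markers of the other cell types that a heart culture can hold were compared in the same way. Of all probe sets, 54.7% without and 56.5% with serum were lower in TG myocytes. With serum all 10 cardiac myocyte genes were higher in TG myocytes (median log2 difference 0.40, 8 of 10 higher without serum with a median of 0.12), with the myosin light chain gene Myl3 (0.57) and Tnni3 (0.42). All 8 endothelial genes were lower with serum (median -0.28, -0.05 without serum), with Vwf at -0.17 and Cdh5 at -0.58 with serum. Kdr was at -0.19 and Vwf at 0.04 without serum, where 6 of the 8 were lower and 2 higher. Without serum 4 of the 8 in WT and 5 in TG myocytes had a mean under 5. Of 10 fibroblast genes, 8 were lower without and 7 with serum (median -0.09 and -0.06). Pdgfra was at -0.21 and -0.26, Postn at 0.20 without serum and Thy1 at -0.22 with serum. Of 8 macrophage genes, 8 were lower without and 4 with serum (median -0.20 and 0.03), with Csf1r at -0.22 and Cd14 at -0.16 without serum. With serum Cd14 was at -0.23 and Adgre1 at 0.23. Of 7 smooth muscle and pericyte genes, 3 were lower in each set (median 0.03 and 0.04). Tagln was at -0.20 without and -0.08 with serum, and Cnn1 at 0.16 without and 0.32 with serum. The Schwann cell gene Sox10, the 1 of 3 measured, had -0.03 in both sets. None of these genes passed the adjusted test.

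The log2 of the summed cardiac myocyte signal was 14.82 to 15.53 in WT and 14.76 to 15.69 in TG cultures without serum, and 15.12 to 15.79 and 15.15 to 16.00 with serum. For the endothelial genes it was 8.98 to 10.01 and 9.11 to 9.97 without serum, and 9.61 to 10.85 and 9.52 to 10.76 with serum, and for the fibroblast genes 12.96 to 14.20, 13.33 to 13.94, 13.31 to 14.42 and 13.53 to 14.20 in the same order. The mean z-score of the cardiac myocyte genes had r = -0.54 (rho -0.52) without and -0.40 (rho -0.42) with serum with that of the 7 epicardial and epithelial genes, and that of the endothelial genes had 0.23 and 0.44. Fibroblast genes had r = -0.42 and -0.23, macrophage genes -0.45 and -0.06, and smooth muscle and pericyte genes -0.51 and -0.37. These r are descriptions over cultures that share their array. The part of the cell types in the differences between TG and WT myocytes was not tested.

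With these 7 genes left out, the genes most like them in both sets were not on the list of further mesothelial and epicardial markers. Likeness was the smaller of the r without and with serum between a gene and the mean z-score of Upk3b, Upk1b, Msln, Krt8, Krt18, Krt19 and Wt1, over 12387 other genes with a mean log2 value of at least 5. This rule left out mesothelial markers that are part of the mean, such as Msln and Upk3b. It also left out markers of low signal, among them Bnc1, Bnc2, Muc16 and Dmkn. The ranking therefore cannot show whether mesothelial markers as a whole stood behind the genes named here. Ttc12 came first (r = 0.91 without and 0.94 with serum), followed by E330013P04Rik (0.88 and 0.93), Pqlc3 (0.87 and 0.94) and Cspg4b (0.86 and 0.87). Lrp2, the endocytic receptor megalin, had 0.86 and 0.87, the G protein subunit gene Gna15 had 0.86 and 0.86, and the pleckstrin family gene Plek2 had 0.92 and 0.86. Qpct, which encodes glutaminyl cyclase, had 0.85 and 0.90, the interleukin 22 receptor gene Il22ra1 had 0.85 and 0.84, and Yipf2 had 0.86 and 0.84. Of the 7 genes themselves, Upk1b (0.90 and 0.81), Krt19 (0.83 and 0.94), Krt8 (0.78 and 0.95) and Msln (0.74 and 0.90) were close to the mean they are part of, and Krt18 (0.60 and 0.25), Wt1 (0.46 and 0.38) and Upk3b (0.38 and 0.55) were less so. Outside the mean, Krt14 had 0.26 and 0.80, Tbx18 -0.18 and 0.52, and Tcf21 -0.64 and -0.26.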

How the data were processed

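RNA of 25 cultures was hybridized to 1 array each. Per the study's methods, the authors ran Robust Multichip Analysis (RMA) in Affymetrix Expression Console 1.1. The deposited table holds log2 values of 35557 probe sets; 0 of its columns could not be matched to a culture. Whether the arrays with and without serum were normalized together is not given in the sources used here. Arrays have no counting depth, and their number limits the precision. Symbols came from the platform annotation (21789 probe sets with 1 symbol, 1621 with several, 12147 unnamed here).

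Within a serum set, TG was compared with WT by limma 3.58.1 in R 4.3.3 (1 mean per group, eBayes), with Benjamini-Hochberg adjustment across every probe set. The difference of the TG effect came from 1 limma fit over 25 arrays. Correlations of values centred on the genotype mean were tested with 100000 permutations within genotypes (numpy 2.4.6), with adjustment over 45 pairs. Single genes were also compared by an exact permutation test (scipy 1.17.1). The methods were tested on simulated data. The 10 genes and the 10 marker lists were chosen with earlier results of these data known. Genes named were the 10 genes, Hey2, the 10 genes most alike by the stated rule, and up to 2 genes with the smallest p per list and set; some further list genes were named as examples of a list. Alternatives were all 25 arrays in 1 fit, a mean-variance trend, array weights, removal of dim probe sets (mean under 5), a further quantile normalization, centring on array medians, only probe sets of 1 gene, the culture number as a replicate block, Spearman rho, values not centred on genotype, and leaving out each array. The culture numbers did not pair the samples, with correlations between residuals of equal number of -0.45 to 0.15 without and -0.36 to 0.062 with serum.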

Additional observations from a re-analysis of the deposited data

Results flagged for a closer look

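Of 40 groups of values (10 genes in 4 groups), 3 held a culture far from the others, where chance alone gives about 1 in 20. Krt19 in WT serum replicate 1 was at 10.32, with the next WT value at 10.98 and the highest at 11.17 (gap of 0.78 of the range). Krt14 in the same culture was at 5.17, with the next at 5.59 and the highest at 5.88 (0.60 of the range). Wt1 in WT no serum replicate 3 was at 6.28, with the next at 6.21 and the lowest at 6.19 (0.76 of the range).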

How the results depend on the processing

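No gene of the 10 passed the adjusted test between TG and WT myocytes under any alternative, and none was reversed within a set by another scaling. With the replicate block 0 genes passed in either set, and 1 had an unadjusted p under 0.05 without serum and 0 with serum (log2 difference of Upk1b -0.67 and -0.81). The block changed no other call. With an unadjusted p, between 0 and 1 genes (without serum) and between 0 and 4 (with serum) passed when 1 array was left out, and with array weights 3 passed in each set. With serum the count was 0 when any one of replicates 2, 3, 4 and 7 of TG serum or 3, 4 and 5 of WT serum was left out, 4 without TG serum replicate 5 or WT serum replicate 1, 3 without TG serum replicate 1 or 6, and 1 without WT serum replicate 7 or after centring on array medians. Single arrays left out turned the small differences of Krt18 without serum (-0.053 to 0.22) and of Tcf21 without (-0.24 to 0.15) and with serum (-0.022 to 0.17). The change of the TG effect from one set to the other kept no direction for most genes. With 1 array left out it ran from -0.035 to 0.059 for Upk3b, -0.33 to 0.14 for Upk1b, -0.075 to 0.22 for Msln, -0.065 to 0.34 for Krt8, -0.040 to 0.23 for Krt18, -0.17 to 0.18 for Krt19, -0.13 to 0.00149 for Krt14, -0.049 to 0.065 for Tbx18 and -0.072 to 0.32 for Tcf21. With array weights it was 0.093 for Upk1b, 0.16 for Krt19 and -0.071 for Tbx18, and for Krt19 it was 0.014 after a further quantile normalization and 0.0087 after centring on array medians. The pairs of genes that passed numbered 2 under each alternative scaling and with Spearman rho without serum, and 8 to 12 with serum. With 1 array left out they ranged from 0 to 2 in the cultures without serum and from 3 to 11 in those with it, the 3 being without WT serum replicate 1. The count without serum was 0 without TG no serum replicate 1 or WT no serum replicate 4 and 1 without any other TG culture. With the 3 cultures of few sarcomere transcripts in a set left out it was 0 without serum and 12 with serum. The 8 cultures left without serum allow too few permutations for a pair on its own to pass. The cause of these changes was not tested. A mean over a gene's probe sets could not differ from the values given, since each gene had 1 probe set.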
